A study of Saccharomyces cerevisiae with 164 samples.

Results

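The strain with lysine 18 of histone H3 changed to arginine on both H3 copies (K18R_double) was compared with the strain that carries the same paired H3 copies without that change (pseudo_wt), by 3′-end RNA sequencing in sequencing batch 11. The comparison holds 9 of the 164 libraries of the series, chosen by their labels: K18R_double replicates 3 to 5 (n = 3) and pseudo_wt replicates 14 to 19 (n = 6). The series profiled budding yeast with H3 mutations on one or both H3 copies, and batch 11 holds 33 libraries of 10 groups. Both groups are Mata cells with both chromosomal H3-H4 gene pairs deleted and the background leu2-3 with leu2-112, ura3-62, trp1, his3+, grown in YEPD to mid-log phase. In K18R_double, plasmid P111 (TRP1, CEN) carries hht2 with K18R, L127A and L131V beside HHT2, as the label has it, and plasmid P112 (LEU2, CEN) carries hht2 with K18R, L110I, A111W and L131I beside HHF1. In pseudo_wt, the plasmid 127A carries hht2 with L127A and L131V, and P44 carries the 1B form with L110I, A111W and L131I beside HHF2. The L127A and L131V form and the L110I, A111W and L131I form were designed so that unlike H3 copies pair within a nucleosome, and all strains compared here carry both. The strains K18R_H3X and K18R_H3Y carry K18R on a single copy, and K14R_double and K56R_double carry another lysine change on both (n = 3 libraries each).

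Lysine 18 lies in the tail of H3 that extends from the nucleosome, and its acetylation by Gcn5, the catalytic subunit of the SAGA complex, is found at promoters of transcribed genes. Arginine keeps the positive charge and cannot be acetylated. In yeast growing on glucose, the storage carbohydrates trehalose and glycogen are made at low rates, and the genes of their synthesis are induced with other stress genes by the transcription factors Msn2 and Msn4, which bind the stress response element AGGGG. The site of the change is codon 18 of the H3 gene counted from the residue after the first methionine, shown in capitals in the start of the HHT2 coding sequence of the RefSeq genome (R64, chrXIV:575931-576050, minus strand). The plasmid alleles themselves carry an arginine codon there, and their sequence was not analysed here.

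HHT2: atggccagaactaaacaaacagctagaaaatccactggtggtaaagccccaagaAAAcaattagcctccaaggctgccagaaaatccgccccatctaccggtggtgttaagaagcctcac

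K18R_double 5 stood apart from the other 8 libraries. It held 750551 counts, while K18R_double 3 and 4 held 2414785 and 3248979 and the pseudo_wt libraries 1656259 to 2828086. Its 10 most abundant genes took 20.3% of its counts, against 11.8% to 13.8% in the other 8. Genes with a coding sequence under 300 bases had a median log2 ratio to the pseudo_wt mean of 0.92 in K18R_double 5, 0.19 in K18R_double 3 and -0.17 in K18R_double 4, and of -0.14 to 0.20 in the pseudo_wt libraries. Fold changes of the genes described below are given with and without K18R_double 5. The genes HHT1 and HHF1, deleted from the chromosome, had 0 counts in all 9 libraries, although the label of P112 names HHF1. Of the 8 a-specific genes of the Mata genotype, 7 were measured and none passed the test, while 1.81% of all genes tested did. STE2, the alpha-factor receptor, had 251, 219 and 327 CPM (counts scaled to 1000000 per library) in K18R_double against 188.5 to 268 CPM in pseudo_wt. The median log2 ratio of each of the 16 chromosomes differed between the groups by -0.0395 to 0.0432. No chromosome passed after adjustment, but the smallest exact permutation p that these libraries can give is 0.0119. Chromosome IX reached that p (difference -0.0307, all K18R_double libraries below all pseudo_wt libraries). Its adjusted exact permutation p was 0.19, the lowest of the 16. A chromosome that differed alone could not have passed, so this test cannot show that no chromosome differed.

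**Figure D1:**
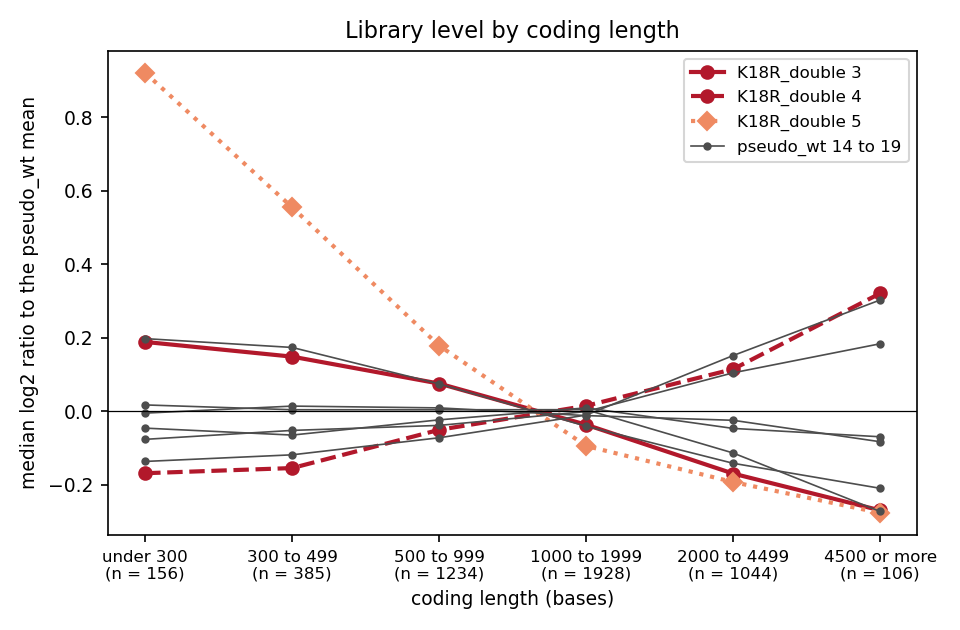
Median log2 ratio of each library to the mean of the 6 pseudo_wt libraries (vertical axis) for genes binned by coding length in bases (horizontal axis), with one line per library. K18R_double 5 runs from 0.92 in the shortest genes to -0.28 in the longest, K18R_double 3 and 4 slope in opposite directions, and the pseudo_wt libraries lie between -0.27 and 0.30 in every bin.

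With all 9 libraries, 90 of 4961 genes passed the test, 62 higher and 28 lower in K18R_double (edgeR's quasi-likelihood test fitted over the 33 libraries of the batch, Benjamini-Hochberg adjusted p under 0.05; 1.81% of genes called, 1.25% higher and 0.564% lower). Without K18R_double 5, no gene passed (smallest adjusted p = 0.198), 312 genes had an unadjusted p under 0.05 (6.29%; 2.92% higher and 3.37% lower), and DESeq2 called 14 (0.282% of the 4961). DESeq2's own filter gave some genes no adjusted p there, RTC3, GLC3, YER079W, ICS2 and EMI2 among them, so these could not be called. With all libraries, 10.1% of genes were higher and 4.62% lower at an unadjusted p under 0.05, and DESeq2 called 244 genes (4.92%). The count of 90 became 139 without K18R_double 3 and 592 without K18R_double 4. It was 52, 42, 77, 112, 39 and 38 without pseudo_wt 14, 15, 16, 17, 18 and 19. With edgeR's spread estimated from the 9 libraries alone, 0 genes passed and 398 had an unadjusted p under 0.05 (8.12%). A fit with each library's slope on coding length and on A content as covariates called 26 genes with all libraries (0.524%; 6 higher, 0.121%, and 20 lower, 0.403%) and 30 without K18R_double 5 (0.605%; 7 higher, 0.141%, and 23 lower, 0.464%). The labels do not say whether the libraries came from separate cultures, so these p-values measure the spread between libraries.

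The 28 genes that fell and the 62 that rose differed in how far they rested on K18R_double 5. All 28 that fell were below 0 without that library, all 28 at an unadjusted p under 0.05, and their median log2 fold change was -0.55 with it and -0.50 without it. In 26 of the 28, all 3 K18R_double libraries lay below all 6 pseudo_wt libraries, while 1.98% of all genes tested did so. The 28 were chosen by a test that used these same libraries, so these counts partly follow from that choice. The 62 that rose had a median of 1.15 with K18R_double 5 and 0.15 without it. In all 62, K18R_double 5 was the highest of the 3 K18R_double libraries, as it was in 2106 of the 4961 genes tested. A coding sequence under 500 bases was found in 45 of the 62, beside 558 of the 4961. Without K18R_double 5, 9 of the 62 kept an unadjusted p under 0.05.

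**Figure D2:**
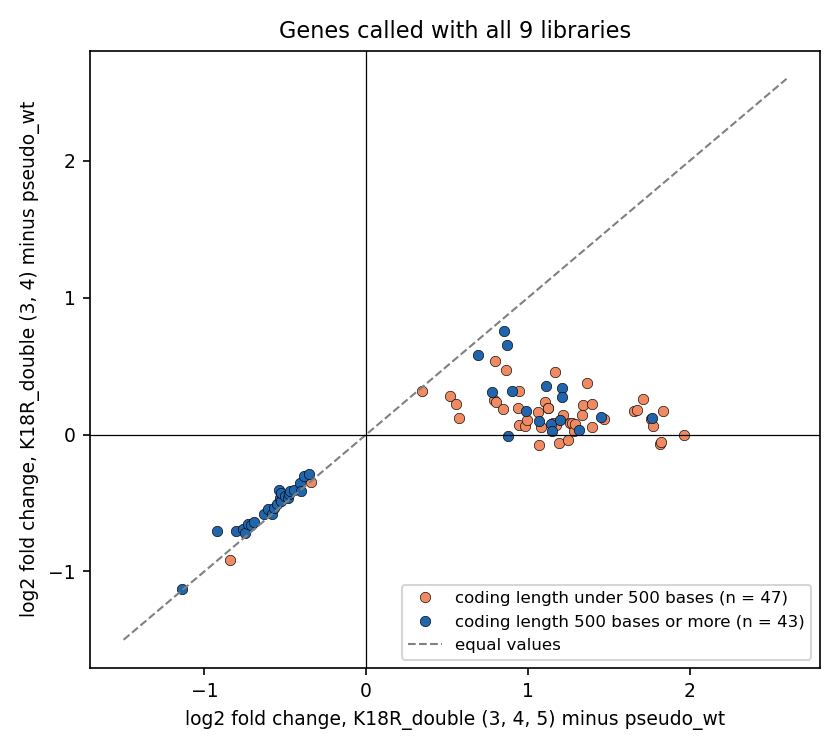
Log2 fold change of the 90 called genes with all 3 K18R_double libraries (horizontal axis) and with K18R_double 3 and 4 only (vertical axis), coloured by coding length. The 28 genes below 0 lie along the line of equal values, and most of the 62 genes above 0 lie near 0 on the vertical axis.

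The genes that fell in K18R_double included enzymes that make and use trehalose and glycogen, stress proteins, glycerol synthesis and an amino acid permease. Of the 18 measured genes of trehalose and glycogen metabolism, 5 fell (TSL1, GLC3, UGP1, PGM2 and NTH1) and 0 rose, while 0.564% of all genes fell and 1.25% rose. The list had a median log2 fold change of -0.36, or -0.29 without K18R_double 5, beside 0.02 and 0.00 over all genes tested. Without K18R_double 5, 9 of the 18 were lower at an unadjusted p under 0.05, while 3.37% of all genes were.

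TSL1 encodes a subunit of the trehalose synthase complex (chrXIII:70624-73920). It had 80.4, 130 and 35.9 CPM in K18R_double 3, 4 and 5, and 131, 176 and 210 CPM as the lowest, median and highest of the pseudo_wt libraries. K18R_double 4 lay just under the lowest pseudo_wt library, and the other K18R_double libraries were well below it. Its log2 fold change was -0.92 (SE 0.21, adjusted p = 0.0223), and -0.71 without K18R_double 5 (SE 0.20, unadjusted p = 0.0013). GLC3, the glycogen branching enzyme (chrV:133120-135234), had 20.3, 22.7 and 12.7 CPM in K18R_double, against 29.8, 34.2 and 38.7 CPM as the lowest, median and highest in pseudo_wt. The groups did not overlap, and its log2 fold change was -0.73 (SE 0.15, adjusted p = 0.0171), or -0.65 without K18R_double 5 (SE 0.16).

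UGP1 makes UDP-glucose, the glucosyl donor for both carbohydrates (chrXI:369891-371390). It had 111, 137 and 101 CPM in K18R_double and 152, 182 and 210 CPM as the lowest, median and highest in pseudo_wt, with no overlap and a log2 fold change of -0.61 (SE 0.13, adjusted p = 0.0171). PGM2, the main phosphoglucomutase, had 72.1, 83.6 and 73.9 CPM in K18R_double against 102 to 118 CPM in pseudo_wt, a log2 fold change of -0.48 (SE 0.11, adjusted p = 0.0223). NTH1, the neutral trehalase that breaks trehalose down, had a log2 fold change of -0.39 (SE 0.10, adjusted p = 0.0424). Without K18R_double 5, the log2 fold changes were -0.54 for UGP1, -0.47 for PGM2 and -0.30 for NTH1, and in the fit with library slopes TSL1, GLC3 and UGP1 passed with and without that library, PGM2 only without it, and NTH1 in neither. Of the 18 genes of the list, 14 were below 0 and 4 above, or 16 and 2 without K18R_double 5. In 7, all 3 K18R_double libraries lay below all pseudo_wt libraries, as they did in 1.98% of all genes tested. The 7 include 2 synthesis genes that did not pass, named after their values were seen. TPS1, which makes trehalose 6-phosphate, had 86.4, 98.9 and 88.6 CPM in K18R_double against 109 to 150 CPM in pseudo_wt (-0.52, adjusted p = 0.0736, and -0.51 without K18R_double 5). GSY2, the main glycogen synthase, had 135, 152 and 124 CPM in K18R_double against 157 to 215 CPM in pseudo_wt (-0.42, adjusted p = 0.0573, and -0.38 without K18R_double 5). PIG2, a regulator of glycogen synthase, was the farthest above 0 of the list, at 0.36 with all libraries and -0.01 without K18R_double 5.

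**Figure D3:**
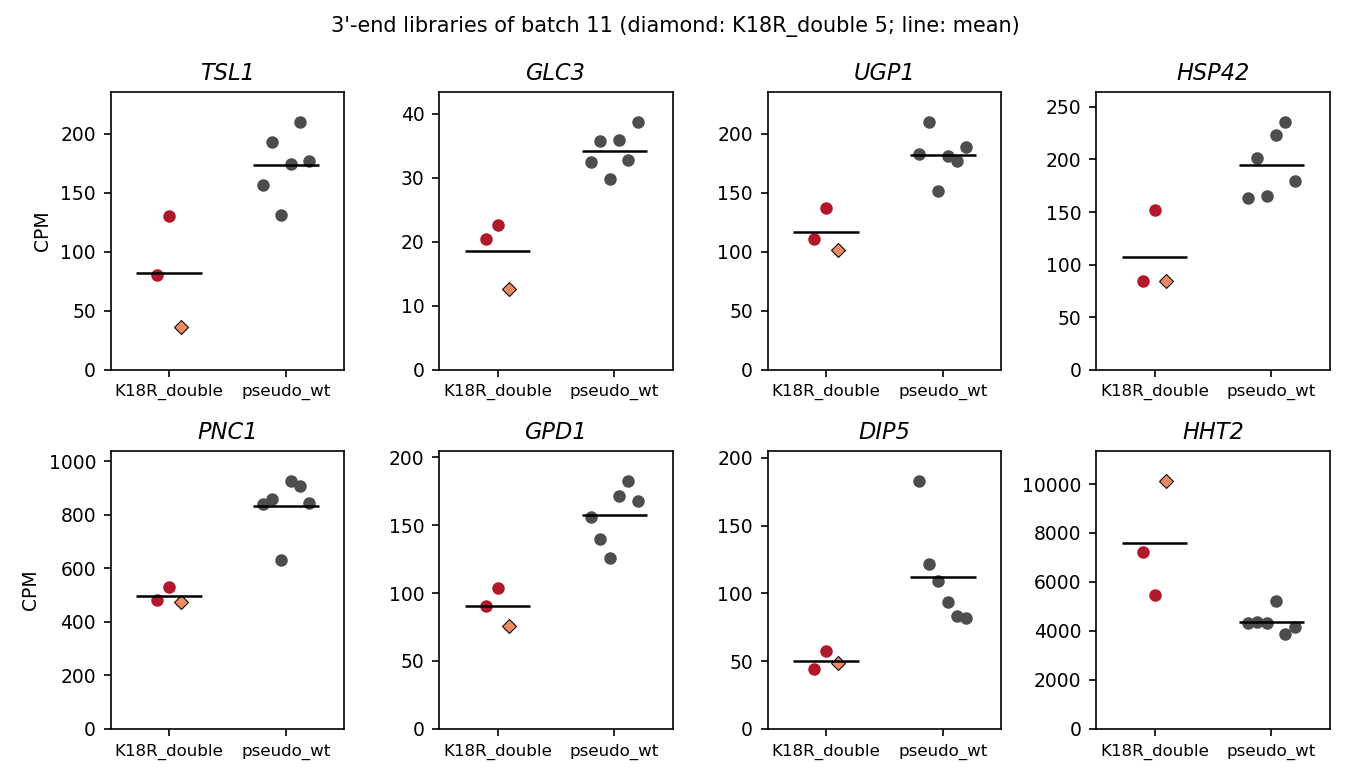
CPM of 8 genes (vertical axes, starting at 0) in the 3 K18R_double libraries and the 6 pseudo_wt libraries, with a point per library, a diamond for K18R_double 5 and a line at each mean. In TSL1, GLC3, UGP1, HSP42, PNC1, GPD1 and DIP5 every K18R_double point is below every pseudo_wt point, and in HHT2 every K18R_double point is above.

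Of 36 measured stress-induced genes, 4 fell (HSP42, PNC1, YGP1 and TMA17) and 0 rose, with a median of -0.26, or -0.32 without K18R_double 5. Over all genes tested, 0.564% fell and 1.25% rose. Without K18R_double 5, 14 of the 36 were lower at an unadjusted p under 0.05, and 0 were higher, while 3.37% of all genes were lower and 2.92% higher. HSP42, a small heat shock protein, had 84.6, 152 and 84.4 CPM in K18R_double and 164, 190 and 236 CPM as the lowest, median and highest in pseudo_wt (log2 fold change -0.80, SE 0.18, adjusted p = 0.0198). PNC1, the nicotinamidase of NAD+ salvage, had 482, 529 and 475 CPM in K18R_double against 631 to 927 CPM in pseudo_wt (-0.75, SE 0.17, adjusted p = 0.0198). YGP1, a secreted glycoprotein, had 1027, 1082 and 956 CPM in K18R_double against 1392 to 1709 CPM in pseudo_wt (-0.55, SE 0.11, adjusted p = 0.0171). The groups did not overlap for these genes, and without K18R_double 5 the log2 fold changes were -0.70 for HSP42, -0.72 for PNC1 and -0.51 for YGP1. HSP12, a membrane stress protein often read as a marker of the stress response, did not pass: it had 918.5, 519 and 559 CPM in K18R_double against 742.5 to 1175 CPM in pseudo_wt, with overlap. The catalase CTT1 had 80.0, 86.4 and 76.0 CPM in K18R_double against 88.4 to 127 CPM in pseudo_wt, with no overlap and an adjusted p of 0.0888.

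DIP5, the dicarboxylic amino acid permease for glutamate and aspartate, fell most among genes with a standard name (chrXVI:41043-42869). It had 44.4, 57.6 and 48.5 CPM in K18R_double, against 81.8, 102 and 183 CPM as the lowest, median and highest in pseudo_wt. The K18R_double libraries were close together and below all pseudo_wt libraries, which spread more widely, with a log2 fold change of -1.14 (SE 0.26, adjusted p = 0.0198) and -1.13 without K18R_double 5. GPD1, the glycerol 3-phosphate dehydrogenase of glycerol synthesis, had 90.6, 104 and 76.0 CPM in K18R_double against 126 to 182.5 CPM in pseudo_wt (-0.76, SE 0.16, adjusted p = 0.0171). GCY1, a glycerol dehydrogenase of the aldo-keto reductase family, had a log2 fold change of -0.69 (SE 0.13, adjusted p = 0.0171). Without K18R_double 5, GPD1 was at -0.69 and GCY1 at -0.64. The rest of the 12 largest falls among genes with a standard name were RTC3 (-0.84, and -0.91 without K18R_double 5), AIM17 (-0.63 and -0.58), ICS2 (-0.58 with and without it) and EMI2 (-0.57 and -0.54), all without overlap of the groups. YER079W, which has no standard name, lay among them (-0.71 and -0.66). MET17, which makes homocysteine from sulfide, had a log2 fold change of -0.53, or -0.46 without K18R_double 5, and CIT1, the mitochondrial citrate synthase, had -0.48 and -0.43. Amino acid synthesis genes gave no call (45 measured, median -0.08), and of 22 genes of glycolysis and fermentation, GPD1 alone was called. Over all genes tested, 1.81% were called.

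Chaperones were described apart from the stress list. Of 26 measured, SIS1, a co-chaperone of Hsp70, and HSP82, an Hsp90 protein, fell and 0 rose, with a median of -0.19, or -0.13 without K18R_double 5. Over all genes tested, 0.564% fell and 1.25% rose. HSP82 had 755, 1189 and 768 CPM in K18R_double against 1078 to 1451 CPM in pseudo_wt, so K18R_double 4 lay inside the pseudo_wt range (log2 fold change -0.53, SE 0.14, adjusted p = 0.0415). SIS1 had 272, 376 and 220 CPM in K18R_double against 372 to 501 CPM in pseudo_wt, with K18R_double 4 again inside the range (-0.54, SE 0.12, adjusted p = 0.0171). Without K18R_double 5, HSP82 was at -0.43 and SIS1 at -0.40.

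The windows from 400 to 151 bases before the coding start were searched in the R64 genome for AGGGG on either strand. Of the 28 genes that fell, 22 (78.6%) held a match and 13 (46.4%) held 2 or more, while 20.1% of the windows of all 4960 genes with a window held a match and 3.08% held 2 or more. Of the 62 genes that rose, 14 (22.6%) held a match. Among the 23 genes called lower in the fit with library slopes and without K18R_double 5, 21 (91.3%) held a match. The 30 genes with 3 or more matches had a median log2 fold change of -0.25, or -0.31 without K18R_double 5, and 6 of them fell. The 3963 genes with none had medians of 0.02 and 0.01, and 6 of them fell. Of all 4960 genes with a window, 28 fell. A match describes the letters of the window and does not show that a factor binds there. The windows below come from genes in those 12 largest falls whose windows overlap no annotated transcript, GLC3 and HSP42 with 3 matches and GPD1 as one of the 4 such genes with 2, with AGGGG or its complement CCCCT in capitals, and that of YGP1, which fell and holds none. They lie at chrV:132720-132969 (GLC3), chrIV:806221-806470 (HSP42), chrIV:411425-411674 (GPD1) and chrXIV:336145-336394 (YGP1), all on the plus strand.

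GLC3: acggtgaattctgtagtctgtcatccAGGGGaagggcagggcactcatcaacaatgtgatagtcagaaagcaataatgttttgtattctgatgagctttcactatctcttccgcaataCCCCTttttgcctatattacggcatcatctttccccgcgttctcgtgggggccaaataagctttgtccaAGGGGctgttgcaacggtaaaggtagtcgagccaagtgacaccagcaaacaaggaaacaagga
HSP42: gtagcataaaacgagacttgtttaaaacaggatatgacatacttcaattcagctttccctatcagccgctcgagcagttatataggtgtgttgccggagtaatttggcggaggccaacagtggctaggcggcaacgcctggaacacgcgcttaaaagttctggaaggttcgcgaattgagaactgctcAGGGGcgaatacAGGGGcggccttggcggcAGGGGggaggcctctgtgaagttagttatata
GPD1: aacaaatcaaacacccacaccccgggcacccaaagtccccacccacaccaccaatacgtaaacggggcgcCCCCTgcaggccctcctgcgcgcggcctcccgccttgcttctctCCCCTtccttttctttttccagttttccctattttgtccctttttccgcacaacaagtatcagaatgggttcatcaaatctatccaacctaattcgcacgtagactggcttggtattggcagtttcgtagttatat
YGP1: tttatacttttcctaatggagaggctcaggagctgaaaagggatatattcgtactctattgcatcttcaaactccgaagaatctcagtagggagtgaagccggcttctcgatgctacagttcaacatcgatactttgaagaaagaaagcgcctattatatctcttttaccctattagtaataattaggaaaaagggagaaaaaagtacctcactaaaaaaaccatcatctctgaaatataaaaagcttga

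**Figure D4:**
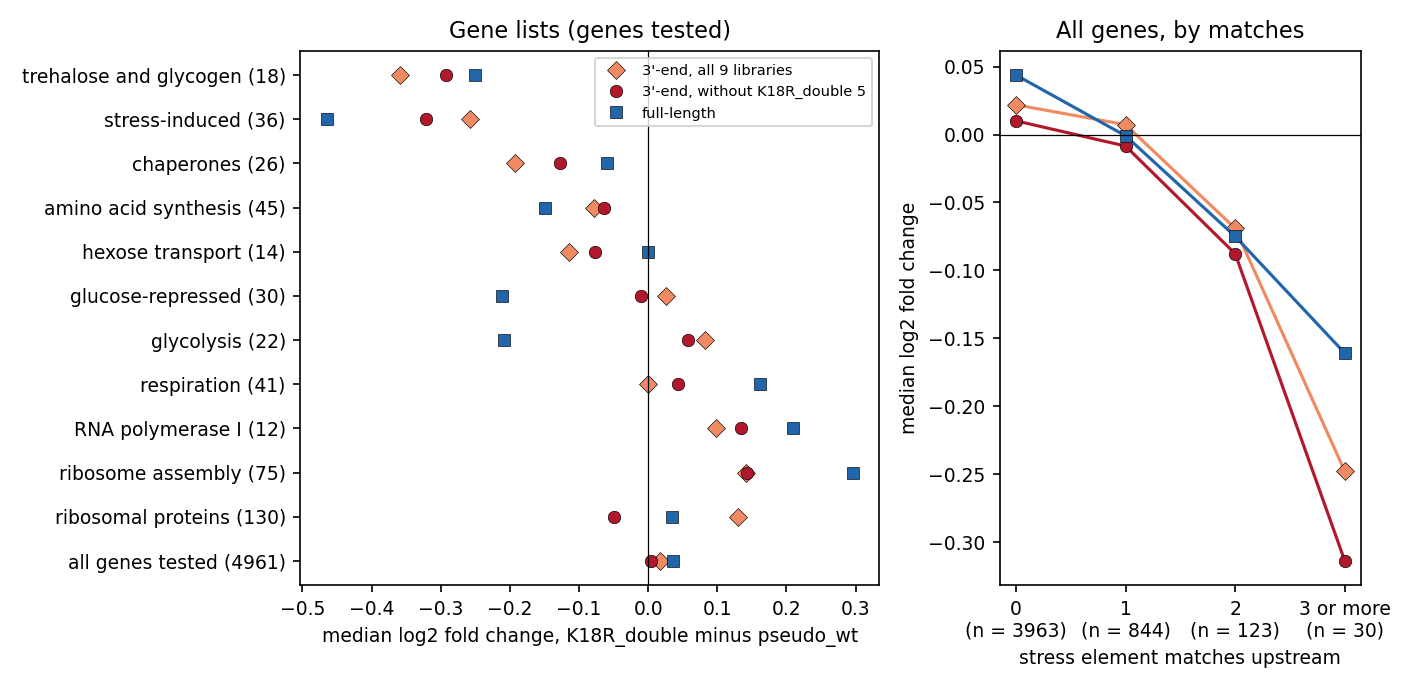
Left, median log2 fold change of gene lists (horizontal axis, number of genes tested in brackets) with all 9 3′-end libraries, without K18R_double 5, and in the full-length libraries. Right, median log2 fold change of all genes (vertical axis) by the number of AGGGG matches in the window before the coding start. Among the lists shown, trehalose and glycogen and stress-induced genes lie lowest in the 3′-end libraries with and without K18R_double 5, and the medians for 3 or more matches are -0.25, -0.31 and -0.16.

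Of the 62 genes that rose, 55 stayed above 0 without K18R_double 5, as did 2533 of the 4961 genes tested. The median of the 62 was then 0.15, and 9 had an unadjusted p under 0.05. HHT2, the H3 gene, which in these strains can come only from the plasmids, had 7235, 5468 and 10120 CPM in K18R_double, against 3871, 4328 and 5204 CPM as the lowest, median and highest in pseudo_wt. All 3 K18R_double libraries were above all pseudo_wt libraries, with a log2 fold change of 0.80 (SE 0.14, adjusted p = 0.0171), 0.54 without K18R_double 5 (SE 0.14, unadjusted p = 0.00055) and 0.51 in the fit with library slopes (adjusted p = 0.00569). HHF2, the neighbouring H4 gene, did not pass, with 13410, 11040 and 17530 CPM in K18R_double against 7637 to 11650 CPM in pseudo_wt (0.47, adjusted p = 0.0606, and 0.28 without K18R_double 5). Of the 9 histone genes measured, HHT2 alone passed, while 1.81% of all genes tested did. TRP1, the marker of one plasmid, had 310, 246 and 437 CPM in K18R_double against 191 to 249.8 CPM in pseudo_wt, with a log2 fold change of 0.56 (adjusted p = 0.0541) and 0.34 without K18R_double 5. LEU2, the marker of the other, had -0.02 with K18R_double 5 and -0.32 without it. Plasmid copy number and transcription per copy cannot be told apart in these counts. The strains also carry different plasmids. Chromosomal leu2 and trp1 alleles of the background may add to the LEU2 and TRP1 counts, which was not tested.

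BNA4, kynurenine 3-monooxygenase of NAD+ synthesis from tryptophan, had 29.1, 27.2 and 42.2 CPM in K18R_double against 12.8, 15.2 and 24.0 CPM as the lowest, median and highest in pseudo_wt. The groups did not overlap, with a log2 fold change of 0.85 (SE 0.18, adjusted p = 0.0171) and 0.76 without K18R_double 5 (SE 0.19). Across all genes tested, 1.03% had all 3 K18R_double libraries above all 6 pseudo_wt libraries. RIB4, lumazine synthase of riboflavin synthesis, had 116, 102 and 148 CPM in K18R_double against 59.8 to 85.1 CPM in pseudo_wt (0.69, SE 0.18, adjusted p = 0.0473). RPC19, a subunit shared by RNA polymerases I and III, had 217, 205 and 226 CPM in K18R_double against 146 to 186 CPM in pseudo_wt (0.34, SE 0.08, adjusted p = 0.0302). Without K18R_double 5, RIB4 was at 0.58 and RPC19 at 0.32. The other rises without overlap of the groups were DAD3, EMP46, DPA10 and BET3. Their log2 fold changes with and without K18R_double 5 were 0.87 and 0.66 for EMP46, 0.86 and 0.47 for DPA10, and 0.78 and 0.31 for BET3. DAD3, a kinetochore microtubule-binding subunit, had 69.3, 58.5 and 226 CPM in K18R_double against 46.4 to 52.8 CPM in pseudo_wt, and its log2 fold change of 0.95 was 0.32 without K18R_double 5.

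The ribosomal protein genes that rose depended on K18R_double 5. Of 130 measured, 11 rose and 0 fell with all libraries, while 1.25% of all genes rose and 0.564% fell. The median of the 130 was 0.13, whereas without K18R_double 5 none passed and the median was -0.05. RPS31, a ubiquitin-ribosomal protein fusion, had 14170, 8729 and 104100 CPM in K18R_double 3, 4 and 5 against 8770 to 16390 CPM in pseudo_wt, and its log2 fold change of 1.82 was -0.07 without K18R_double 5. RPL41B, among the shortest coding sequences of the genome, had 5716, 3373 and 35660 CPM in K18R_double 3, 4 and 5 against 3368 to 5821 CPM in pseudo_wt. Its log2 fold change of 1.77 was 0.06 without K18R_double 5. K18R_double 4 lay just below the pseudo_wt range for RPS31, and K18R_double 3 and 4 otherwise lay inside the range for both genes. Ribosome assembly genes gave no call in either direction (75 measured), with a median of 0.14 with and without K18R_double 5. Of the 75, 62 were above 0, or 67 without K18R_double 5, beside 2640 and 2533 of the 4961 genes tested. Of 25 SAGA and H3 acetyltransferase genes, SUS1 alone passed, while 1.81% of all genes tested did. SUS1 had 178, 119 and 696 CPM in K18R_double 3, 4 and 5 against 127 to 172 CPM in pseudo_wt. Its log2 fold change was 1.08 with K18R_double 5 and 0.06 without it. GCN5 had a log2 fold change of 0.15 with and without K18R_double 5 (adjusted p = 0.641 with it) and the H3 deacetylase list gave no call (22 measured).

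K18R on both copies was next compared with K18R on a single copy, the mean of K18R_H3X and K18R_H3Y. No gene passed (edgeR; 0% of 4961), 570 had an unadjusted p under 0.05 (11.5%), and DESeq2 called 112. Without K18R_double 5 the count was also 0. It was 88 without K18R_double 3, 536 without K18R_double 4 and 111 without K18R_H3Y 4. For the 4 genes given here, the single-copy strains had means between those of K18R_double and pseudo_wt. These genes were picked from those called against pseudo_wt with the same K18R_double libraries, so this order partly follows from that choice. In 3689 of the 4961 genes tested, K18R_double differed from the single-copy mean in the same direction as from pseudo_wt. GLC3 averaged 18.6 ± 5.23 CPM in K18R_double, 25.6 ± 1.46 in K18R_H3X, 22.8 ± 2.44 in K18R_H3Y (SD, n = 3 each) and 34.2 ± 3.15 in pseudo_wt (SD, n = 6). PNC1 averaged 495 ± 29.3 CPM in K18R_double, 646 ± 35.6 in K18R_H3X, 694 ± 148 in K18R_H3Y (SD, n = 3 each) and 835 ± 106 in pseudo_wt (SD, n = 6). GCY1 averaged 80.0 ± 9.56 CPM in K18R_double, 114 ± 10.6 in K18R_H3X, 110.0 ± 10.2 in K18R_H3Y (SD, n = 3 each) and 133 ± 15.2 in pseudo_wt (SD, n = 6). HHT2 averaged 7607 ± 2348 CPM in K18R_double, 5460 ± 354 in K18R_H3X, 5046 ± 1185 in K18R_H3Y (SD, n = 3 each) and 4377 ± 445 in pseudo_wt (SD, n = 6). Without K18R_double 5, K18R_double averaged 21.5 CPM for GLC3, 505.5 for PNC1, 85.2 for GCY1 and 6351 for HHT2, on the same side of both single-copy means. The difference of double from single copy was not past the threshold for any of them (adjusted p = 0.6254 for GLC3, 0.275 for PNC1, 0.119 for GCY1 and 0.106 for HHT2, edgeR).

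Against the other double mutants the differences were broader. Of 4961 genes, 1696 differed between K18R_double and K14R_double (34.2%; 17.8% higher and 16.3% lower in K18R_double) and 1310 between K18R_double and K56R_double (26.4%; 15.4% higher and 11% lower). Without K18R_double 5 these counts were 1173 (23.6%; 10.6% higher and 13.1% lower) and 857 (17.3%; 9.86% higher and 7.42% lower), and in the fit with library slopes 47 and 582. These comparisons share the K18R_double libraries with the comparison to pseudo_wt, so the values are given side by side. Of the 18 trehalose and glycogen genes, 12 were lower in K18R_double than in K56R_double and 1 was higher, while 2 were lower and 1 higher than in K14R_double. Without K18R_double 5, 9 were lower and 1 higher than in K56R_double, while 2 were lower and 0 higher than in K14R_double, near the 13.1% of all genes that were lower than in K14R_double. Of the 36 stress-induced genes, 23 were lower and 1 higher than in K56R_double, while 7 were lower and 6 higher than in K14R_double. Without K18R_double 5, 22 were lower and 0 higher than in K56R_double, while 7 were lower and 2 higher than in K14R_double. GLC3 averaged 18.6 CPM in K18R_double, 29.5 in K14R_double, 44.6 in K56R_double and 34.2 in pseudo_wt, and its log2 difference from K56R_double was -1.12 (adjusted p = 3.91e-05, edgeR), or -1.03 without K18R_double 5. GPD1 averaged 90.1 CPM in K18R_double and 88.0 in K14R_double, a log2 difference of 0.07 (SE 0.18, adjusted p = 0.774, edgeR) and of 0.15 without K18R_double 5, against 153 in K56R_double. RTC3 averaged 44.4 CPM in K18R_double and 43.4 in K14R_double, with a log2 difference of -0.04 (SE 0.23) and of -0.11 without K18R_double 5, against 65.6 in K56R_double.

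Other libraries of the series measured the same strains by full-length RNA sequencing (2 K18R_double and 5 pseudo_wt libraries), and no library is shared with the 3′-end comparison. K18R_double and pseudo_wt share no batch there, so the difference was estimated through the other strains of the 98 libraries with batch as a term. No gene passed (edgeR; 0% of 6376), and 129 had an unadjusted p under 0.05 (2.02%). Of the 28 genes that fell in the 3′-end libraries, 27 were below 0 in the full-length libraries, with a median of -0.51, and 10 of them had an unadjusted p under 0.05, as did 1.32% of all genes in that direction. That fit counts pseudo_wt 1 to 3 as separate libraries. Of those, pseudo_wt 1 and 2 lay near sampling noise of each other (chi-square 1.15 times its degrees of freedom). Both differed from pseudo_wt 3 by more (1.95 and 2.76), though by less than pseudo_wt 4 and 5 differed from each other (8.73). Pseudo_wt 1 to 3 may be a single library sequenced repeatedly. With pseudo_wt 2 and 3 left out, no gene passed, 26 of the 28 were below 0 (median -0.48) and 5 had an unadjusted p under 0.05 (0.689% of all genes in that direction). Of all genes tested in both assays, 2174 of 4955 were below 0 and the median was 0.04. Of the 62 that rose, 37 were above 0, with a median of 0.05. DIP5 had 92.7 and 93.6 CPM in the full-length K18R_double libraries, against 189.9, 165.5 and 157 CPM in pseudo_wt, with pseudo_wt 1 to 3 averaged as a single value (log2 fold change -0.64, SE 0.28, unadjusted p = 0.0293, edgeR, or -0.58, SE 0.32, unadjusted p = 0.0794 with pseudo_wt 2 and 3 left out). GLC3 had 39.5 and 32.6 CPM in K18R_double against 64.5, 44.2 and 52.3 CPM in pseudo_wt (-0.80, SE 0.39, or -0.83, SE 0.43 with pseudo_wt 2 and 3 left out), and YGP1 had 867 and 708 CPM in K18R_double against 1174, 1181 and 1336 CPM in pseudo_wt (-0.87, SE 0.30, or -0.83, SE 0.33). In these genes, and in 11 of the 28 in all, both K18R_double libraries were below all 3 pseudo_wt values, while in the other 17, GPD1, PNC1 and UGP1 among them, they were not. The full-length CPM values are not adjusted for batch, and the groups share none, so batch and strain cannot be told apart in them. HHT2 had 2554 and 5770 CPM in K18R_double against 3072, 3819 and 2898 CPM in pseudo_wt, on both sides of the pseudo_wt values (-0.04, SE 0.30), and YER079W was the gene of the 28 above 0 (0.11, SE 0.32). The trehalose and glycogen list had 16 of 18 genes below 0 (median -0.25) and the stress-induced list 32 of 36 (median -0.46). Lists with at most 1 fall in the 3′-end libraries also lay below 0 in the full-length libraries, with 20 of 22 genes of glycolysis and fermentation (median -0.21, against 0.08 in the 3′-end libraries), 41 of 45 of amino acid synthesis (median -0.15) and 21 of 26 of sulfur and methionine metabolism (median -0.25). Other lists lay above 0 there, with 74 of 75 ribosome assembly genes (median 0.30) and 12 of 12 RNA polymerase I genes (median 0.21), beside 2781 of the 4955 genes.

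**Figure D5:**
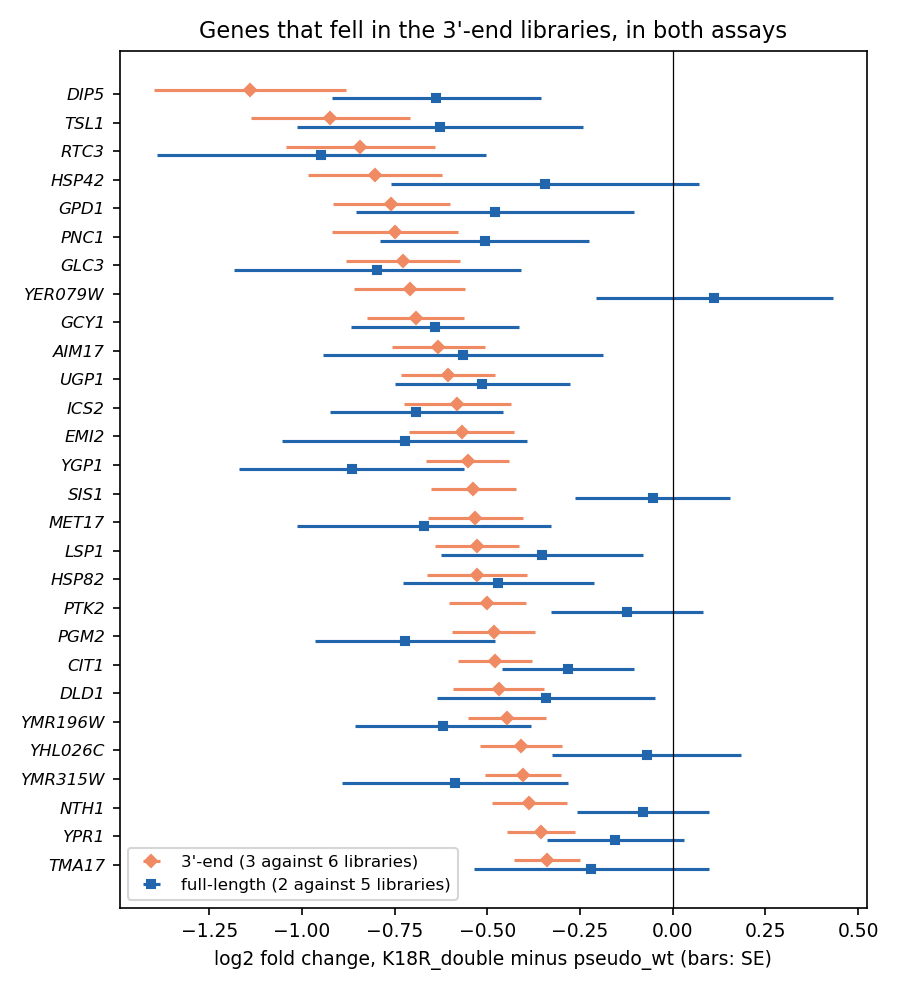
Log2 fold change of the 28 genes that fell in the 3′-end libraries (horizontal axis, one gene per row) in the 3′-end libraries (diamonds) and in the full-length libraries (squares), with bars for the standard error. All genes but YER079W are below 0 in both assays, and the full-length standard errors are wider.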

How the data were processed

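The authors deposited raw counts of reads per annotated transcript, one file per library; per the file headers they were made with featureCounts 1.4.6-p2, strand setting 1, mapping quality at least 30 and duplicates kept, over alignments whose names carry bwa samse. Per the submitters' processing notes the genome was sacCer3, and TopHat2 2.0.12 and Bowtie2 were among the tools. The full-length counts, also deposited raw, were made per the file headers over read pairs and with duplicates ignored. Per the labels' protocols, 0.5 µg of total RNA was reverse transcribed with barcoded oligo-dT, pooled, tagmented and amplified for 12 PCR cycles, with no molecular identifiers named, so reads are not independent molecules and depth covers counting error only.

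Here, genes passing edgeR's filterByExpr were scaled by TMM and fitted over the 33 libraries of batch 11 (10 groups, leaving 23 residual degrees of freedom; common coefficient of variation 0.132) with edgeR 4.0.16 in R 4.3.3. CPM values use the scaled library sizes, and SE is the log2 fold change divided by the root of F. DESeq2 1.42.0, other scaling, no filter, fewer groups, left-out libraries and library slopes were alternatives. Library slopes are each library's slopes of log2 level on log2 coding length and A content over genes of at least 20 CPM. On simulated counts for 4958 genes, the test of K18R_double against pseudo_wt called 86% of genes made 2-fold lower, 54% of those 1.5-fold lower and, without K18R_double 5, 80% and 46%. Each class held 50 changed genes. The counts were drawn independently for each gene and library, without the slopes on coding length seen in the real libraries, so recovery in the real data may be lower. Genes were matched to RefSeq R64 by locus tag (5013 of 5013), and printed coordinates are R64 gene coordinates; one upstream window is not reported here. Transcript features of chromosome X sat 281.5 bases off their R64 genes (median) and 121 of 309 ended inside the gene, so values of genes there (PTK2) are less sure. Genes were named where they had a standard name, the mean over the 9 libraries was at least 5 CPM, the test passed and the groups did not overlap (the 12 largest each way, of which 8 rises qualified), plus up to 4 called members per list and all histone, plasmid marker, a-specific and SAGA genes; list members that did not pass were named after their values were seen. The comparison and the 33 gene lists were chosen with earlier results of these data known. Lists without a value in the text gave at most 1 call each way except respiration (2 higher, 1 lower of 41). Pairs of libraries within a group differed by more than sampling noise (a chi-square 2.74 to 73.6 times its degrees of freedom).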

Additional observations from a re-analysis of the deposited data

Results flagged for a closer look

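Of 22 groups of 6 pseudo_wt values checked, 3 had a library far from the others, and chance flags about 1 in 20 such groups. HHT2 had 5200 CPM in pseudo_wt 17, the highest of that group and below the lowest K18R_double library. EMI2 had 105 CPM in pseudo_wt 17, also the highest. PNC1 had 631 CPM in pseudo_wt 16, the lowest of that group and above the highest K18R_double library.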

How the results depend on the processing

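For K18R_double minus pseudo_wt, the count of 90 genes was 244 with DESeq2, 26 with library slopes, 0 with the 9 libraries alone and 0 to 592 with each library left out in turn; RLE scaling gave 90 and no filter gave 85. Added after seeing the data, library slopes without K18R_double 5 gave 30 genes and DESeq2 without it gave 14. Of the 37 called genes named, all kept direction and call with RLE scaling, DESeq2 and no filter, and 16 kept both with library slopes. Without K18R_double 5 none passed, and RPS31 and RPL23B changed sign; with each library left out in turn, their log2 fold changes ran -0.0678 to 2.30 and -0.0573 to 2.31, both highest without K18R_double 4. They also changed sign without K18R_double 5 in DESeq2 (-0.0645 and -0.0537) and with library slopes (-0.13 and -0.15), where SUS1 (-0.011) and RPL41B (-0.0198) did too. These genes were high in K18R_double 5 alone, and why that library differs was not tested. K18R_double minus the single-copy mean gave 0 genes, 112 with DESeq2 and 0 to 536 with libraries left out. K18R_double minus K14R_double gave 1696 genes, 157 with only the groups compared, 47 with library slopes, 57 with library slopes and without K18R_double 5, and 880 to 2084 with libraries left out; with the replicate block it gave 1683, and 36 with library slopes and the replicate block. BET3 changed sign there (-0.0443) with library slopes and without K18R_double 5. K18R_double minus K56R_double gave 1310 genes, 11 with only the groups compared, 582 with library slopes, 701 with library slopes and without K18R_double 5, and 793 to 1718 with libraries left out; with the replicate block it gave 1307, and 531 with library slopes and the replicate block. The replicate numbers shared by the mutant groups did not pair the libraries (same-number deviations correlated at -0.71 to 0.15), and in none of the 4 pairs of mutant groups did every library correlate best with its own number. No paired analysis was run for K18R_double against pseudo_wt because the groups share no replicate number. In the order of the samples, pseudo_wt 16 and 17 stand directly before the K18R libraries. Among the pseudo_wt libraries, K18R_double 3 and 5 correlated best with pseudo_wt 17 (0.9875 and 0.9348) and K18R_double 4 with pseudo_wt 16 (0.9867). Whether libraries that stand together were also prepared together was not tested. The full-length comparison gave 0 genes in every fit. The slope on log2 coding length differed by -0.102 (exact permutation p = 0.262) and by -0.1 over genes of at least 5 CPM. The cause of these changes was not tested. With 3 libraries against 6, the test called 54% of simulated 1.5-fold falls, and 46% without K18R_double 5, in simulated libraries that had no slope on coding length.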
